A study of Mus musculus with 2 samples.

Results

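The 8 genes of killer lymphocytes followed here were Gzma, Gzmb and Gzmk, which encode granzymes A, B and K, Prf1 (perforin), Nkg7, Ctsw (cathepsin W), Ifng (interferon gamma) and Fasl (Fas ligand). The rule took the rows of the matrix whose symbol is one of these 8 names, and all 8 were found among 12638 genes. The genes were described in lymphocytes of tumours and of lymph nodes of the same mice. Cytotoxic lymphocytes, mainly CD8 T cells and natural killer (NK) cells, kill by releasing granules. Perforin opens pores in the membrane of the target cell, and granzymes, which are serine proteases, pass through them and start cell death. Fas ligand on the surface of a lymphocyte can kill through the Fas receptor of its target, and secreted interferon gamma acts on neighbouring cells through its own receptor, activating macrophages and raising antigen presentation.

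Gzma and Gzmk lie near each other on mouse chromosome 13, Prf1 and Ifng share chromosome 10, and the other 4 members each lie on a chromosome of their own. On mm10 (GENCODE vM21 annotation) Gzma spans chr13:113093825-113100981 and Gzmk chr13:113171608-113225908, both on the minus strand. Gzmb spans chr14:56258838-56262260 (minus), Prf1 chr10:61297833-61304680 (plus), Ifng chr10:118441046-118445892 (plus), Nkg7 chr7:43437073-43438249 (plus), Ctsw chr19:5465043-5468507 (minus) and Fasl chr1:161780689-161788495 (minus). Promoters of Gzmb, Prf1 and Nkg7 are printed because the levels of these 3 genes carry the comparisons of tumour with node below, while Gzmb parts from the others in regulatory T-like cells. Each is the 250 bases before the start of the RefSeq transcript (build GRCm38.p6), 5′ to 3′ on the strand of the gene, with capitals marking matches of 3 short motifs on either strand.
Gzmb, chr14:56262335-56262584, minus strand: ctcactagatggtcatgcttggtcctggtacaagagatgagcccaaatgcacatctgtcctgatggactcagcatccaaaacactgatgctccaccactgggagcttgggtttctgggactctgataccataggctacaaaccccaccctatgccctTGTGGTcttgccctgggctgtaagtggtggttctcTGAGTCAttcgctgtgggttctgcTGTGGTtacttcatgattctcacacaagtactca
Prf1, chr10:61297586-61297835, plus strand: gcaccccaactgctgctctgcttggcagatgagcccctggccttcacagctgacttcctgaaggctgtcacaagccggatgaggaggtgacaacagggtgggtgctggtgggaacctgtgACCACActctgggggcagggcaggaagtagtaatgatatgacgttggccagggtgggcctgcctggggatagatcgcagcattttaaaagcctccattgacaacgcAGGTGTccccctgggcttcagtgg
Nkg7, chr7:43436888-43437137, plus strand: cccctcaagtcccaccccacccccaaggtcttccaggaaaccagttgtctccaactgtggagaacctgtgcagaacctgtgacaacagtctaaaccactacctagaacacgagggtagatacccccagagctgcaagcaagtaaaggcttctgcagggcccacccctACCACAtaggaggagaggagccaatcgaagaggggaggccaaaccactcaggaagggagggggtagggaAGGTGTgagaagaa
The motifs searched were TGANTCA (AP-1), TGTGGT (Runx) and AGGTGT (T-box), and no matches overlapped in these promoters. RefSeq promoters were at hand for 7 of the 8 members, Ctsw being the other. The AP-1 letters were found in Gzmb alone among the 7, starting 58 bases before the transcript start, and in 6.75% of 32851 mouse promoters of this length. The Runx letters were found in Gzma, Gzmb, Prf1 and Nkg7 and in 14% of all promoters. The T-box letters were found in Gzma, Gzmk, Prf1 and Nkg7 and in 11.8% of all promoters. A match is a stretch of letters and not a measured binding site.

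The series held 12458 cells sorted for CD45 with enrichment of dendritic cells from 4 C57Bl6 mice with tumours grown under the skin from MC38-OVAdim, a colon carcinoma line that carries an ovalbumin transgene. In 2 mice (KO1 and KO2) Havcr2, which encodes the receptor TIM-3, was knocked out, and the 2 control mice (WT1 and WT2) had the genotype Havcr2 fl/fl. Tumour, the lymph node draining it (dLN) and a non-draining node (ndLN) of each mouse gave 12 samples. Samples were tagged with hashing antibodies to CD45 and pooled, KO1 and WT1 in droplet channel 1, and KO2 and WT2 in channel 2. The sources used here name neither the Cre driver nor the deleted exons, nor the age of the mice. Samples held 3031124 to 28498154 UMIs (unique molecular identifiers, each counting 1 captured RNA molecule), and 65 cell barcodes occurred in both channels. As a check of the genotype labels, Havcr2 in tumour macrophage-like cells had 0.0466 and 0.0300 UMIs per 10000 in KO1 and KO2, against 0.689 and 0.546 in WT1 and WT2. In tumour T and NK cells Havcr2 had 0.926 and 0.397 UMIs per 10000 in KO1 and KO2, against 0.957 and 0.414 in WT1 and WT2. The lymphocytes labelled KO therefore held Havcr2 RNA at levels overlapping those of WT lymphocytes.

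T and NK cells numbered 3800, of which 2072 were CD8 T-like, 1160 CD4 T-like, 228 regulatory T-like, 211 NK-like and 129 belonged to cluster 20, a cycling T cell cluster. Clusters were made without the 8 genes and named from marker genes. The tumours held 407 of these cells, 143 in KO1, 47 in KO2, 197 in WT1 and 20 in WT2, while dLN held 1832 and ndLN 1561. Markers mostly fitted the names, but several differed between tumour and node cells of a class. Among CD8 T-like cells Cd8a had a UMI in 92.3% of tumour and 85.2% of dLN cells. Foxp3, which defines regulatory T cells, had one in 83.9% of tumour, 64.0% of dLN and 53.0% of ndLN regulatory T-like cells. Cd4 had a UMI in 56.5% of dLN and 52.6% of ndLN CD4 T-like cells. Among NK-like cells the activating receptor gene Ncr1 had a UMI in 87.6% of tumour, 97.7% of dLN and 80.0% of ndLN cells. Klre1, another NK marker, had one in 89.4%, 65.1% and 60.0% of them. Il7r, the interleukin 7 receptor gene, had a UMI in 7.08% of tumour, 69.8% of dLN and 50.9% of ndLN NK-like cells. The cells of a class need therefore not be alike in tumour and node. The mix of classes differed, with 45.0% CD8 T-like, 21.4% regulatory T-like, 27.8% NK-like and 3.69% CD4 T-like cells in tumour, against 54.5%, 4.09%, 2.35% and 35.9% of the same classes in dLN. Median depth of T and NK cells was 6468 UMIs for tumour, 4780 for dLN and 4814 for ndLN. Background from free RNA was read in B-like cells, where at most 0.565% of 2302 node cells (median 3054 UMIs) had a UMI of any 1 member. The 52 B-like cells of the tumours (median 3672.5 UMIs) had 2 UMIs of Nkg7 and none of the other members, which allows a share of up to 5.77% of cells for each of those.

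In T and NK cells as a whole, the granule genes and Fasl were higher in tumour than in dLN in all 4 mice. Levels below are UMIs per 10000 UMIs, summed over the cells of a sample and given for KO1, KO2, WT1 and WT2 in that order. Differences are tumour minus node in the mean over cells of log2(1 + UMIs per 10000), tested with limma on the samples, with p adjusted by Benjamini-Hochberg over 7060 genes. Gzmb, the granzyme with the broadest list of death-inducing substrates, had 30.7, 20.2, 30.9 and 20.8 UMIs per 10000 in tumour, against 0.273, 0.749, 0.0877 and 0.280 in dLN. The tumour samples all lay far above the dLN samples. The difference was 2.90 ± 0.200 (limma SE, 4 mice, limma adjusted p = 2.88e-07), rank 1 of 7060 genes by size. Here and below, limma SEs of tumour minus node pool the spread of all tissues in a fit. For Gzmb the standard deviation between mice was 0.673 in tumour, against 0.0200 in dLN, so the SE is not one of the 4 differences alone. Gzma, a granzyme of NK cells and effector CD8 T cells, had 13.3, 20.0, 33.5 and 10.5 UMIs per 10000 in tumour, against 1.31, 0.278, 0.463 and 1.43 in dLN. Again no dLN sample reached the lowest tumour sample, and the difference was 1.41 ± 0.170 (limma adjusted p = 2.90e-05). Gzmk, a granzyme of memory-like CD8 T cells in mice and humans, had 0.810, 1.14, 0.870 and 1.31 UMIs per 10000 in tumour, against 0.0210, 0.0171, 0.0807 and 0.113 in dLN. The groups did not overlap, but Gzmk had a UMI in 3.42% of T and NK cells, under the 5% set for testing, and so has no test here.

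Prf1 had 8.39, 5.22, 6.73 and 4.00 UMIs per 10000 in tumour, against 0.278, 0.359, 0.242 and 0.335 in dLN, with no overlap. Its difference was 1.26 ± 0.102 (limma adjusted p = 9.40e-07). Nkg7, a granule membrane protein needed for full release of granules in mice, had 34.1, 28.2, 28.0 and 15.9 UMIs per 10000 in tumour, against 4.38, 5.34, 4.76 and 6.36 in dLN. It differed from the granzymes in being well detected in the nodes too, and its difference was 2.16 ± 0.207 (limma adjusted p = 4.00e-06). Ctsw, a cysteine protease of cytotoxic lymphocytes, had 7.33, 6.87, 5.64 and 6.69 UMIs per 10000 in tumour, against 2.55, 3.14, 2.56 and 3.34 in dLN. The tumour samples lay close together and above each dLN sample, and the difference was 1.03 ± 0.0860 (limma adjusted p = 1.27e-06). Fasl had 1.71, 2.53, 1.85 and 1.31 UMIs per 10000 in tumour, against 0.126, 0.145, 0.126 and 0.123 in dLN. Its difference was 1.10 ± 0.0794 (limma adjusted p = 3.91e-07), again without overlap.

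Ifng behaved less evenly. It had 3.67, 21.5, 2.79 and 0.207 UMIs per 10000 in tumour, against 0.226, 0.342, 0.288 and 0.403 in dLN. Tumour was higher in 3 of 4 mice, and the WT2 tumour, with 20 T and NK cells, was below its own dLN. The difference was 0.70 ± 0.148 (limma adjusted p = 0.00212). Of the 8 members 7 were tested and all 7 were past the threshold, where 43.4% of the 7060 tested genes were past it with 34.8% higher and 8.64% lower. The members' count is not read as support, because several of them passed the filter mainly through tumour cells. Throughout, the share of all genes without overlap between groups is not given, so a lack of overlap is not read as support either. Against ndLN the same 7 genes were past the threshold, by 0.62 (Ifng, adjusted p = 0.00437) to 2.89 (Gzmb, adjusted p = 3.18e-07) in limma, where 44.2% of genes were past it, 35.8% higher and 8.31% lower. Without WT1 the Ifng difference from ndLN was 0.55 with a limma adjusted p of 0.0524. The heat shock gene Hspa1a, which answers to handling of cells, had 0.546, 0.284, 0.379 and 0 UMIs per 10000 in tumour T and NK cells, against 2.99, 3.36, 1.21 and 2.00 in dLN, and its part in these differences was not tested. These values mix more of a class with more RNA per cell, which cannot be told apart in the joint samples, so each class is taken in turn below.

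**Figure D1:**
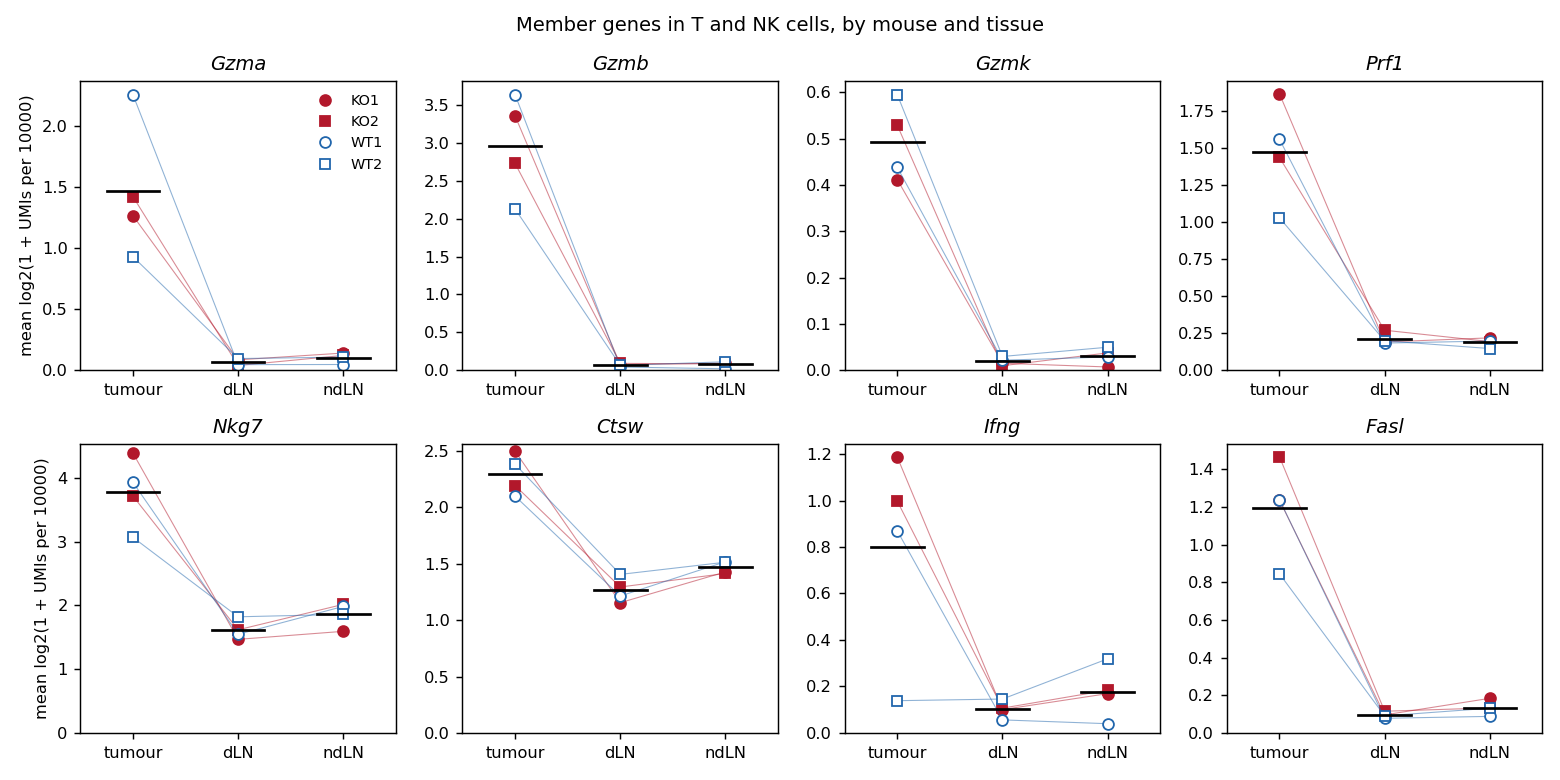
Mean log2(1 + UMIs per 10000) of each member in T and NK cells (y axis, from 0, with its own range per panel) of tumour, dLN and ndLN (x axis), 1 point per mouse joined by a line, with the mean of 4 mice as a bar. The 4 tumour points lie above all node points for each gene except Ifng, where the WT2 tumour (0.14) lies among the nodes. The share of all genes that separate in this way is not given, so the separation is not read as particular to the members.

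CD8 T-like cells, the main killer T cells, had higher Gzmb, Prf1, Nkg7, Ctsw, Ifng and Fasl in tumour than in dLN. The tumour of WT2 held 7 such cells and was left out of the test, so 3 tumours stand against 4 dLN. Gzmb had 27.2, 11.9 and 21.3 UMIs per 10000 in the tumours of KO1, KO2 and WT1 (4.55 in the 7 cells of WT2), against 0.193, 0, 0.0333 and 0.0117 in dLN of KO1, KO2, WT1 and WT2. It was thus nearly unseen in node CD8 T-like cells, where 0.794% of 1889 cells of both nodes had a UMI, against 63.4% of 183 tumour cells. The difference was 2.42 ± 0.128 (limma adjusted p = 1.28e-09). Gzmb passed the 5% filter through tumour cells, so this p value is not read as support. Prf1 had 7.87, 6.98 and 7.94 UMIs per 10000 in the 3 tumours, against 0.443, 0.467, 0.366 and 0.309 in dLN. Its difference of 1.51 ± 0.0637 (limma adjusted p = 1.16e-10) came with less spread between mice than that of Gzmb. Nkg7 had 49.6, 40.5 and 38.8 UMIs per 10000 in the 3 tumours, against 7.09, 7.84, 7.18 and 7.78 in dLN, a difference of 2.42 ± 0.131 (limma adjusted p = 1.56e-09). Most node CD8 T-like cells held Nkg7, with a UMI in 89.5% of those of both nodes, against 98.4% in tumour. Fasl differed by 1.42 ± 0.0870 (limma adjusted p = 5.37e-09) and Ctsw by 0.75 ± 0.0907 (limma adjusted p = 8.64e-06), with no overlap for either.

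Interferon gamma RNA in the tumours came mainly from these cells, which held 94.0% of the Ifng UMIs of all tumour cells in KO1, 98.4% in KO2 and 83.4% in WT1. The WT2 tumour had 6 Ifng UMIs in all, 1 of them in CD8 T-like and 2 in NK-like cells. Ifng had 6.58, 46.0 and 6.12 UMIs per 10000 in CD8 T-like cells of the KO1, KO2 and WT1 tumours, against 0.250, 0.125, 0.0532 and 0.122 in dLN. The high value of KO2 rested on 1 cell, which held 501 of the 750 UMIs (66.8%), and without it the level was 16.3. On the scale of mean log2 values, where a single cell weighs less, the 3 tumours were close together at 1.88, 1.79 and 1.74, against 0.11, 0.08, 0.03 and 0.08 in dLN. The difference was 1.73 ± 0.0495 (limma adjusted p = 4.21e-12). Ifng had a UMI in 118 of 183 tumour and 78 of 1889 node CD8 T-like cells. It too passed the 5% filter through tumour cells, so this p value is not read as support. In WT2 1 of 7 tumour CD8 T-like cells had an Ifng UMI. Gzma had a UMI in 21.9% of tumour and 1.48% of node CD8 T-like cells, and Gzmk in 64 of 183 tumour cells and 1.16% of node cells. Both were under the 5% filter over all CD8 T-like cells (3.28% and 4.15%) and were not tested. In the nodes of KO1, 170 of the 183 Gzma UMIs of CD8 T-like cells were in 1 cell. The 6 members tested were all past the threshold, where 45.7% of 6757 genes were past it, 36.7% higher and 8.98% lower, and the same caution holds for this count. Tumour CD8 T-like cells were mostly of cluster 18 (164 of 183), dLN ones of cluster 0 (916 of 998), whose leading genes differ. With cells of clusters 17 and 18 alone, the Ctsw difference was 0.08 (limma adjusted p = 0.800) and the other 5 genes stayed past the threshold.

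**Figure D2:**
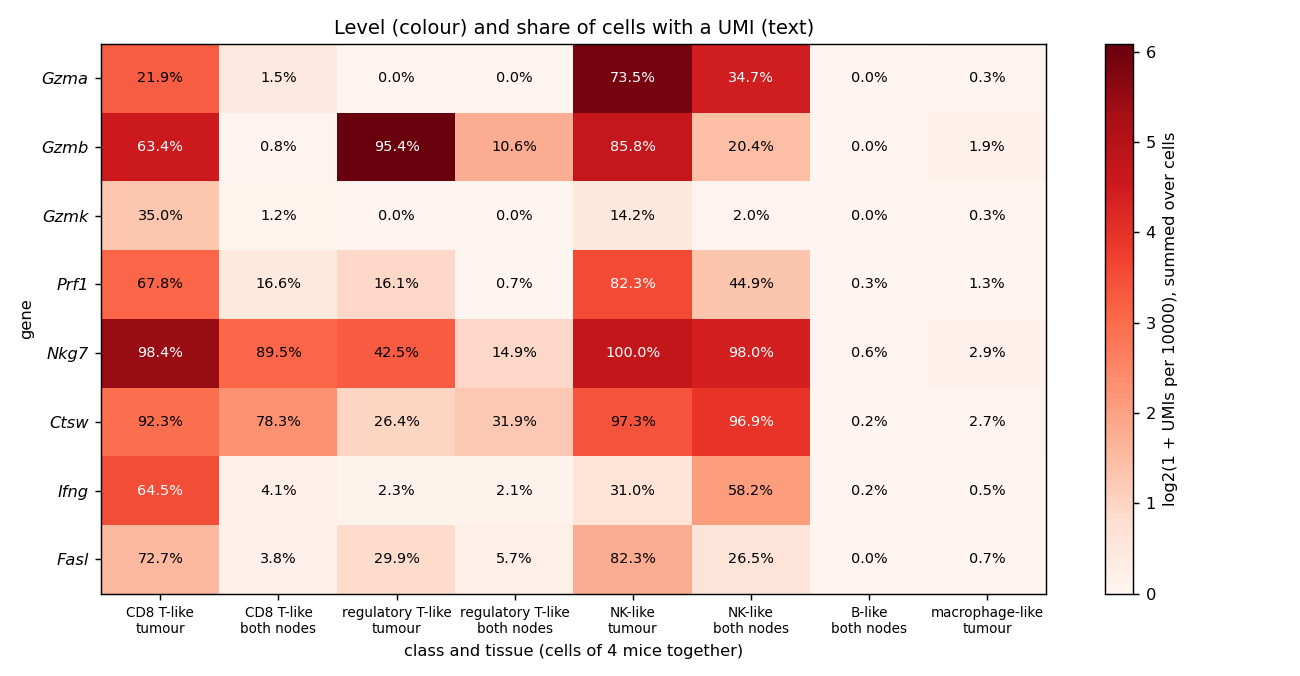
Level of each member by class and tissue with the cells of 4 mice together, as log2(1 + UMIs per 10000) in colour (0 is white), and the share of cells with at least 1 UMI as text. The darkest Gzmb field is the regulatory T-like cells of tumour (95.4% of cells), and the B-like column gives the background beside tumour macrophage-like cells.

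Regulatory T-like cells, which restrain other lymphocytes, had very high Gzmb in tumour, some Nkg7, and low levels or none of the other 6 members. Gzmb had 78.5, 50.6, 66.4 and 71.2 UMIs per 10000 in the tumours of KO1, KO2, WT1 and WT2 (the last with 4 cells), against 1.94, 13.9, 0.358 and 1.02 in dLN. Every tumour sample was above every dLN sample, and the highest dLN value, that of KO2, came from 15 cells. Across both nodes of KO2, 1 cell held 79 of the 105 Gzmb UMIs. Of 87 tumour cells 83 had a Gzmb UMI (95.4%, exact binomial 95% interval 88.6 to 98.7), against 10.6% of 141 node cells. After thinning each cell to 1000 UMIs the shares were 86.0% in tumour and 7.91% in nodes. The difference between tumour and dLN was 4.75 ± 0.257 with 3 tumours and 4 dLN (limma adjusted p = 1.56e-35), rank 1 of 7229 genes. This fit had 4 residual degrees of freedom beside 136 borrowed from all genes, so its p values rest mostly on borrowed spread.

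No UMI of Gzma or Gzmk was found in the 87 tumour cells, which allows a share of up to 3.45% of cells with a UMI, nor in the 141 node cells. Prf1, without which granzymes do not enter a target cell, had 0.237, 1.04 and 1.20 UMIs per 10000 in the tumours of KO1, KO2 and WT1, against 0 in all 4 dLN. That is a difference of 0.39 ± 0.0815 (limma adjusted p = 0.000194), from a share of 16.1% of tumour cells with a UMI against 1 of 141 node cells, so that Prf1 passed the filter through tumour cells. Nkg7 had 5.53, 9.52 and 10.4 UMIs per 10000 in the tumours of KO1, KO2 and WT1, against 2.20, 0, 0.537 and 2.04 in dLN, and differed by 1.07 ± 0.173 (limma adjusted p = 7.29e-07). On the scale of mean log2 values the Nkg7 groups overlapped, and in the KO1 tumour 1 cell held 57 of the 70 Nkg7 UMIs, the level being 1.11 without it. Fasl differed by 0.46 ± 0.123 (limma adjusted p = 0.00661), a call lost without KO1 (adjusted p = 0.0608) or WT1 (0.108). Ctsw differed by 0.02, with a 95% interval of -0.31 to 0.35 (limma adjusted p = 0.970). Ifng had a UMI in 2 of 87 tumour cells and was under the filter. Of 5 members tested 4 were past the threshold, where 8.47% of genes were past it and 6.7% were higher, and this count is not read as support either. With cells kept by a gate on marker UMIs in place of clusters, 0 genes passed (343 at an unadjusted p under 0.05), and Gzmb stood at 4.53 with a limma adjusted p of 0.0755 from 6 samples.

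NK-like cells were compared between tumour and both nodes of each mouse summed, in samples of 5 cells or more, a comparison added after cell numbers were seen because nodes held few NK-like cells. They numbered 33, 9, 66 and 5 in tumours of KO1, KO2, WT1 and WT2, against 16, 23, 17 and 42 in nodes. Gzmb had 25.2, 9.22, 27.4 and 12.7 UMIs per 10000 in tumour, against 3.75, 1.75, 0.275 and 1.82 in nodes. It was higher in all 4 tumours, by 2.71 ± 0.230 (limma adjusted p = 1.27e-19). Prf1 had 13.6, 8.66, 9.31 and 9.20 UMIs per 10000 in tumour, against 2.36, 1.34, 1.38 and 1.48 in nodes. Its groups did not overlap, and the difference was 1.78 ± 0.218 (limma adjusted p = 1.04e-10). Fasl had 1.97, 3.41, 2.72 and 1.59 UMIs per 10000 in tumour, against 0.555, 0.617, 0.550 and 0.437 in nodes, and differed by 1.33 ± 0.176 (limma adjusted p = 2.26e-09). Gzma was abundant in NK-like cells of either place, with 26.03, 81.9, 78.9 and 26.9 UMIs per 10000 in tumour, against 35.1, 21.9, 11.5 and 19.6 in nodes. It was higher in tumour in 3 of 4 mice, with overlapping groups, by 2.11 ± 0.269 (limma adjusted p = 6.14e-10). NK-like cells held 73.5% of the Gzma UMIs of all tumour cells.

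Ifng ran the other way in NK-like cells. It had 0.216, 0.284, 0.885 and 0.354 UMIs per 10000 in tumour, against 4.44, 1.85, 0.367 and 4.91 in nodes. Tumour was lower in 3 of 4 mice, WT1 being the exception, and the groups overlapped. The difference was -0.84 ± 0.166 (limma adjusted p = 2.16e-04), and 31.0% of 113 tumour cells had an Ifng UMI, against 58.2% of 98 node cells, although the tumour cells were deeper (median 6692 UMIs against 5730). After thinning to 1000 UMIs the shares were 7.08% in tumour and 26.5% in nodes. Without WT2 the difference was -0.52 (adjusted p = 0.116), and in samples of 10 or more cells, which leaves out the tumours of KO2 and WT2, it was -0.47 (adjusted p = 0.362). Node NK-like cells also held more Il7r, the interleukin 7 receptor gene of innate lymphoid and T cells, with 0.103 UMIs per 10000 in tumour, against 4.10 in dLN and 2.85 in ndLN. In NK-like cells with no Il7r UMI the Ifng difference was -0.15 (adjusted p = 0.885), Gzma stood at 0.40 (adjusted p = 0.681) and Prf1 at 1.06 (adjusted p = 0.0510). Hspa1a had 0 to 0.142 UMIs per 10000 in NK-like cells of tumours and 1.69 to 9.10 in those of dLN; its part in the Ifng values was not tested. Gzmk, with few UMIs, differed by 0.43 (adjusted p = 0.0184), a call lost without KO2 or WT2. Nkg7 at 0.66 (adjusted p = 0.0749) and Ctsw at -0.44 (95% interval -0.90 to 0.03, adjusted p = 0.473) did not pass. Of 8 members 6 were past the threshold in limma, 5 of them higher, where 2.13% of 8063 genes were past it, 1.04% being higher and 1.09% lower. Gzmk passed the filter through tumour cells, with a UMI in 16 of 113 tumour and 2 of 98 node cells, and this count too is not read as support. With cells thinned to 1000 UMIs no gene passed, and the fit had 3 residual degrees of freedom beside 146 borrowed from all genes.

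**Figure D3:**
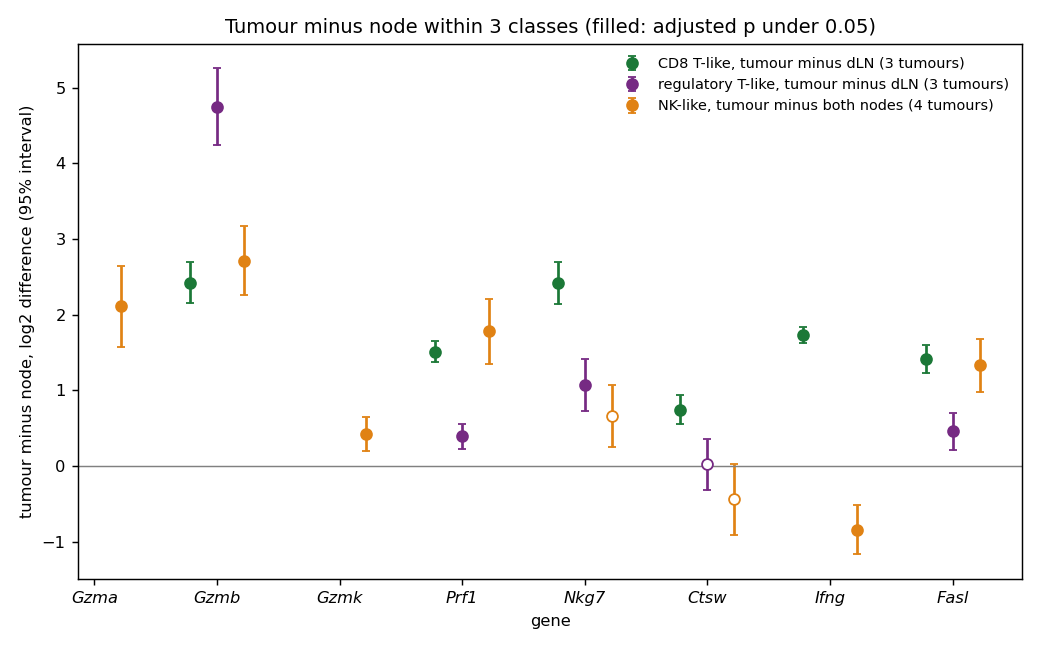
Difference between tumour and node in mean log2(1 + UMIs per 10000) with its 95% interval (y axis) for each member (x axis) in CD8 T-like, regulatory T-like and NK-like cells, filled where the limma adjusted p is under 0.05. Members under the 5% filter have no point. The node is dLN for CD8 T-like and regulatory T-like cells (3 tumours), and both nodes for NK-like cells (4 tumours). Gzmb is highest in regulatory T-like cells (4.75), and Ifng lies above 0 in CD8 T-like cells (1.73) and below 0 in NK-like cells (-0.84).

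The differences between classes were tested as such, with tumour minus both nodes taken per mouse in each class, after the values above were known. Samples of 5 cells or more entered here, so that the NK-like against CD8 T-like test also holds the 7 CD8 T-like cells of the WT2 tumour. That fit had 3 residual degrees of freedom beside 29 borrowed from all genes. The regulatory T-like against CD8 T-like fit had 2 beside 55, so p values of both rest mostly on borrowed spread. Ifng differed most between NK-like and CD8 T-like cells, at -0.84 in NK-like cells against 1.33 in CD8 T-like cells, an offset of -2.17 ± 0.205 with the same sign in 4 of 4 mice (limma adjusted p = 1.44e-08). Nkg7 (-1.37, adjusted p = 0.00803) and Ctsw (-1.21, adjusted p = 0.0138) were also lower in this sense, and Gzma was higher (1.42, adjusted p = 0.0222), where 3.72% of 8249 genes passed. Without WT2 the Ifng offset was -2.25, and the Gzma call was lost without KO2, WT1 or WT2 (adjusted p = 0.0711 to 0.302). The Ifng and Gzma differences of NK-like cells were smaller in cells with no Il7r UMI, as given above. The offsets are not given for those cells. With summed UMIs the Gzma offset turned to -0.71 and that of Gzmb, 0.61 and not past the threshold here, to -1.03. With 3 mice, Gzmb rose by 2.49 ± 0.242 more in regulatory T-like than in CD8 T-like cells (limma adjusted p = 9.55e-12). Prf1 (-1.17), Nkg7 (-1.29), Ctsw (-0.81), Ifng (-1.67) and Fasl (-0.90) had lower differences in regulatory T-like cells, where 5.25% of 7663 genes passed. With summed UMIs the Gzmb offset was 0.12 (adjusted p = 0.880) and that of Nkg7 turned to 0.011. With low genes kept, no gene passed in either test.

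The shares of single tumour cells in which other members were found beside Gzmb also differed by class. Among cells with a Gzmb UMI, Prf1 was found with it in 14 of 83 regulatory T-like cells (16.9%), against 92 of 116 CD8 T-like cells (79.3%) and 80 of 97 NK-like cells (82.5%). Ifng was found in 2 of the 83 regulatory T-like cells, against 88 of 116 CD8 T-like (75.9%) and 30 of 97 NK-like cells (30.9%). Nkg7 was found in 43.4% of the regulatory T-like Gzmb cells, against each of the 116 CD8 T-like and 97 NK-like cells. Gzma was found in none of the regulatory T-like Gzmb cells, in 31.9% of the CD8 T-like and in 80.4% of the NK-like ones. All 8 members were detected together in 12 CD8 T-like and 6 NK-like cells of the tumours. A tumour CD8 T-like cell held a median of 5 of the 8 members, an NK-like cell 6 and a regulatory T-like cell 2, at median depths of 7128, 6692 and 5637 UMIs, while 1.30% of B-like node cells held any member. These are shares of pooled cells, most of them from KO1 and WT1, and are given as description. Of 87 regulatory T-like tumour cells 83 had a Gzmb UMI, so their shares nearly repeat those of the whole class. Ifng was found in 118 of all 183 CD8 T-like and 35 of all 113 NK-like tumour cells. Whether members go together within the cells of a class was not tested.

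**Figure D4:**
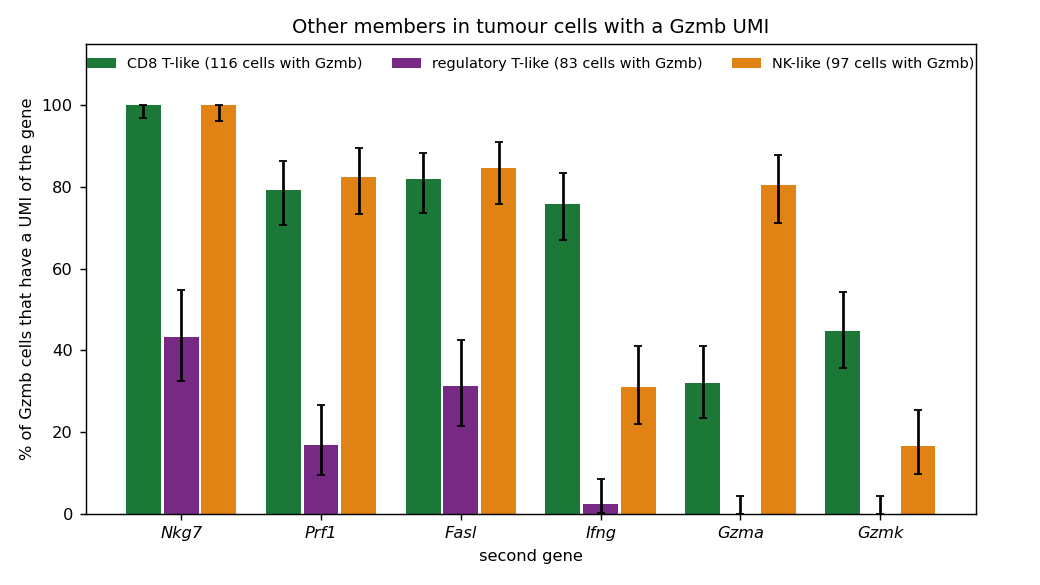
Share of tumour cells with a Gzmb UMI that also have a UMI of another member (y axis, percent, with exact binomial 95% intervals for counting error only) in CD8 T-like (116), regulatory T-like (83) and NK-like (97) cells, by second gene (x axis). The regulatory T-like bars are the lowest for each gene, at 16.9% for Prf1 against 79.3% and 82.5% in the other classes. Of 87 regulatory T-like tumour cells 83 had a Gzmb UMI, so these bars nearly repeat the shares of the whole class.

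**Figure D5:**
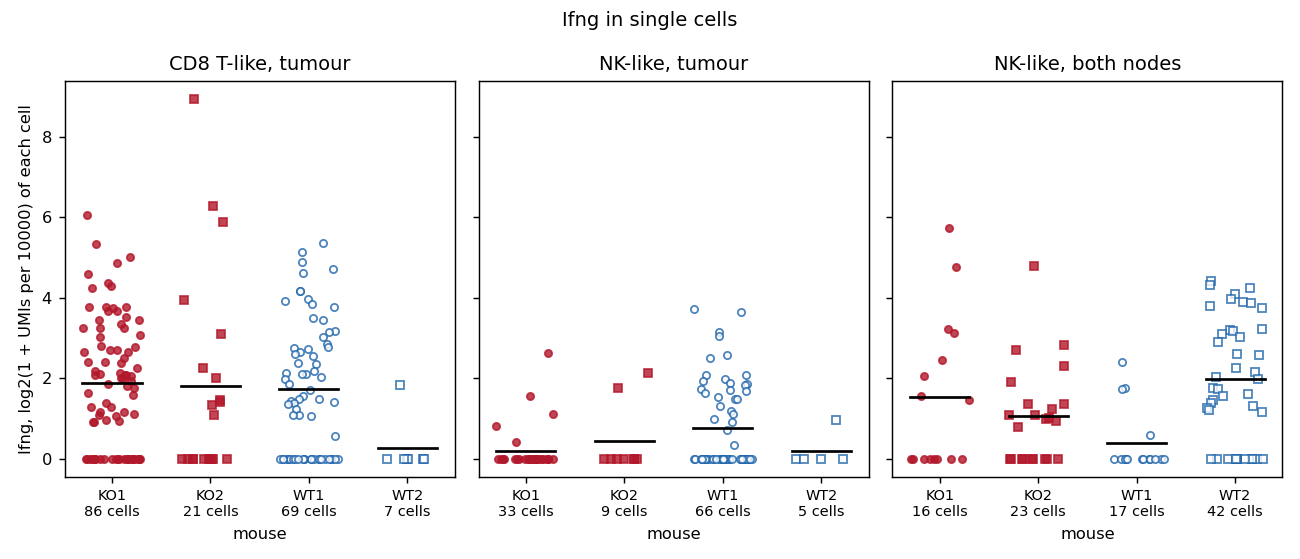
Ifng in each cell as log2(1 + UMIs per 10000) (y axis) by mouse (x axis, with the number of cells) in CD8 T-like cells of tumour, NK-like cells of tumour and NK-like cells of both nodes, with the mean as a bar. In KO2 1 CD8 T-like cell stands far above the others, and NK-like means are lower in tumour than in nodes for each mouse except WT1.

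Between the 2 kinds of node no member passed. The Ifng levels of T and NK cells were 0.226, 0.342, 0.288 and 0.403 UMIs per 10000 in dLN, against 0.385, 0.390, 0.106 and 0.983 in ndLN, and Gzmb levels were 0.273, 0.749, 0.0877 and 0.280 in dLN, against 0.337, 0.776, 0.0811 and 0.593 in ndLN. Both pairs overlapped widely. Ctsw alone among the tested members did not overlap, at -0.20 (95% interval -0.39 to -0.02, limma adjusted p = 1.00). By limma 0 of 7060 genes were past the threshold (0%), with 48 at an unadjusted p under 0.05, and by limma-voom 0 as well.

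Havcr2 knockout mice and their controls were compared within each tissue, 2 against 2. In tumour T and NK cells mean log2 Ifng was 1.19 and 1.00 in KO1 and KO2, against 0.87 and 0.14 in WT1 and WT2. The 2 KO tumours were above both WT tumours, but the difference of 0.59 ± 0.167 did not pass (limma adjusted p = 0.196). Nkg7 (0.55), Prf1 (0.36), Fasl (0.31), Gzmb (0.16), Ctsw (0.10) and Gzma (-0.25) had limma adjusted p of 0.215 to 0.822, with overlapping groups. The Gzmb interval of -0.56 to 0.88 shows how little 4 mice can resolve, and its fit pooled the spread of all 3 tissues. The standard deviation of mean log2 Gzmb was 0.444 in KO and 1.07 in WT tumours, against 0.0119 and 0.0152 in dLN. The interval thus understates the spread between tumours. By limma 0 of 7060 genes passed (0%), with 1222 at an unadjusted p under 0.05, and by limma-voom 0 also. CD8 T-like cells made up 60.1% and 44.7% of tumour T and NK cells in KO1 and KO2, against 35.03% in WT1 and 35% in WT2, and the part of this mix in the values was not tested. Without WT1 the control is the single WT2 tumour of 20 cells, which is assumed to vary like the other samples, and the result is no measure of genotype. In that fit 1808 genes passed, with Ifng at 0.95 (adjusted p = 0.000986) and Gzma at 0.41 (adjusted p = 0.00698). Without WT2, with WT1 as the single control, 1 gene passed, Gzma at -0.92 (adjusted p = 0.00458), so the sign for Gzma turned with the control mouse that was kept. In dLN 1 gene, no member, passed (0.0142%), and in ndLN 0 (0%), with 19 at an unadjusted p under 0.05 and 0 by limma-voom. The change of the tumour minus dLN difference with genotype was tested too, and 0 genes passed (Ifng 0.59, adjusted p = 0.700).

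Genes of the same pathways were taken from 5 lists and read in T and NK cells, tumour minus dLN, beside a median of 0.05 over all genes tested, of which 34.8% were higher and 8.64% lower past the threshold. Of 16 tested genes of the granule and its release 14 rose and 0 fell (median 0.36), led by Srgn, the proteoglycan core that holds granzymes in the granule (1.80), Cst7, a cathepsin inhibitor (1.09), Serpinb9, the inhibitor of granzyme B (1.08), and Vamp8, a vesicle fusion protein (0.97). Of 7 cytokines and chemokines 4 rose and 0 fell (median 0.13), namely Ccl5 (2.30), Ccl4 (1.56), Xcl1 (0.40) and Tnfsf10 (0.13). Of 11 transcription factors of the effector programme 7 rose and 4 fell (median 0.35). Id2 (1.90) and Bhlhe40 (1.32), factors of effector and tissue-resident cells, rose, while Klf2 (-1.64) and Tcf7 (-1.33), factors of naive and resting T cells, fell. Of 14 genes of the interferon gamma receptor and its response 10 rose and 1 fell (median 0.24), with Ifngr1, a receptor chain, at 2.16, Irf8 at 1.77 and Socs1, a feedback inhibitor, at 1.10, while the other receptor chain, Ifngr2, was the 1 that fell (-0.22). Of 5 genes of the Fas death pathway 3 rose, among them Casp8 (0.25) and Cflar (0.23), and 1, the receptor Fas, fell (-0.06). The named changes had limma adjusted p of 2.18e-08 to 0.0452. The summed level of 7 macrophage markers was 1.33, 0.795, 0.659 and 0.207 UMIs per 10000 in tumour T and NK cells, against 0.934, 0.180, 0.474 and 0.236 in dLN, with 3 to 6 of the 7 found per tumour, and its part in these lists was not tested.

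The lists are given by class next, without a test between classes. The share of all genes past the threshold and higher was 36.7% in CD8 T-like, 6.7% in regulatory T-like and 1.04% in NK-like cells, so the counts cannot be set against each other. In CD8 T-like cells 7 of 7 cytokines and chemokines rose, led by Ccl5 (2.89) and Ccl4 (2.70), which recruit other immune cells, and the granule list had 11 higher and 1 lower of 16. In regulatory T-like cells 5 of 15 granule genes rose, among them Vamp8 (1.17), Srgn (1.14) and Cst7 (1.13), and Serpinb9 stood at 0.16 (limma adjusted p = 0.416). In NK-like cells 0 of 9 cytokines and chemokines rose and 3 fell, Xcl1 (-1.73), Ccl5 (-1.41) and Ltb (-0.88), each with a limma adjusted p of 0.00906 or less. Node NK-like cells held more Il7r, and list values are not given for NK-like cells with no Il7r UMI. In the same cells 4 of 18 granule genes rose, Gzmc (1.19), Gzmd (1.09), Serpinb9 (1.08) and Cst7 (0.76). Gzmc and Gzmd belong to a family of close copies, so reads may have been split among them. Irf8 rose in the 3 classes, by 1.83 in CD8 T-like, 1.22 in regulatory T-like and 2.65 in NK-like cells, and Ifngr1 by 1.60, 2.14 and 1.56.

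Genes whose levels ran most like those of 4 members were sought over 121 class, tissue and mouse samples of 21 classes, among 7053 genes, as a description only, since samples share libraries and depth. Gzmb ran most like Tnfrsf9, the co-stimulatory receptor 4-1BB (r = 0.87), Camk2n1 (0.84) and Il12rb1, an interleukin 12 receptor chain (0.82). Prf1 ran most like Klrc1, which encodes the receptor NKG2A (0.91), Ctla2a (0.85) and Il12rb2 (0.83). Nkg7 ran most like Ctla2a (0.91), Gm19585 (0.87) and Il2rb, a chain of the interleukin 2 and 15 receptors (0.86). Ifng ran most like Klrc1 (0.83), Il18rap, a chain of the interleukin 18 receptor (0.80), and Tbx21, the factor T-bet (0.73). Among the members the closest pair was Nkg7 with Ctsw (0.92), then Prf1 with Fasl (0.89), and Gzmb with Ctsw (0.48) was among the loosest.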

How the data were processed

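Single-cell RNA of 12 mouse and tissue samples was measured in 2 droplet channels with a 5′ kit. Reads were processed with Cell Ranger 3.0.2 on mm10, per the submitters' processing notes. The authors deposited natural log values, ln(1 + 10000 × UMIs / total UMIs of the cell), as recovered from the values: 100% gave whole UMIs within 0.01, and each cell summed to 10000. The deposited metadata gave mouse, tissue and genotype of each cell. Low genes are detected less often in shallow cells, which ran from 687 to 131217 UMIs, so shares were also read after thinning to 1000 UMIs, which leaves out 23 of the 3800 T and NK cells.

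Cells were clustered with scanpy 1.11.5 (2000 variable genes without the 8 members, 30 components, 15 neighbours, leidenalg 0.10.2, resolution 1, seed 0), giving 27 clusters, named from markers. No cell was removed on quality and no doublet caller was run. Cluster 26 (45 cells with T and B markers together) was left out. Whether the study removed doublets before is not given in the sources used here.

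Means over cells of log2(1 + UMIs per 10000) were tested in samples with 10 or more cells (5 for NK-like cells and for differences between classes) with limma 3.58.1 (trend, R 4.3.3), two-sided, Benjamini-Hochberg at 0.05, on genes with a UMI in 5% of cells. Such log2 differences understate changes of low genes. Mouse was a term between tissues, since the labels give each mouse's tissues. A count model was not the main test, since the deposited unit is a natural log, although whole UMIs could be recovered. A fit by limma-voom on the summed UMIs was run as an alternative. The test was checked on simulated data, but the outcome is not given here and is not read as support for the p values. Intervals on shares and limits from 0 (3 counts) cover counting error only. The members, lists and tests were chosen with earlier results of these data known. Named were the 8 members, the list genes of largest change, up to 4 a list (single values of 2 of these are not reported here), and the 3 genes most like Gzmb, Prf1, Nkg7 and Ifng. Genes named by class were chosen after their values were seen. There were 2 mice per genotype. Fits over samples of several tissues share an estimate of spread per gene, with some of it borrowed from all genes. Their p values therefore do not measure the spread between tumours alone. Alternatives were thinning, no filter, summed UMIs, limma-voom, other clusters, a marker gate, no block and each mouse left out.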

Additional observations from a re-analysis of the deposited data

Results flagged for a closer look

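Of 61 member groups of 4 samples 3 held a sample far from the others by Dixon's criterion (4.92%, where chance gives about 1 in 20), and all were regulatory T-like cells of dLN, with 15 to 25 cells a sample. Mean log2 Gzmb was 1.19 in KO2, against 0.21 to 0.33 in the other mice (gap 0.880 of the range). Mean log2 Fasl was 0.33 in KO2, against 0.08 to 0.09 (gap 0.966 of the range). Mean log2 Ifng was 0.12 in WT1, against 0 in the others (gap 1 of the range), from 1 UMI.

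Changes from both nodes to tumour differed between classes by a limma test of the difference itself. Residual degrees of freedom were 3 for NK-like and 2 for regulatory T-like against CD8 T-like cells, and the p values rest mostly on spread borrowed from all genes. For NK-like against CD8 T-like cells the offsets were 1.42 for Gzma (adjusted p = 0.0222), -1.37 for Nkg7 (0.00803), -1.21 for Ctsw (0.0138) and -2.17 for Ifng (1.44e-08). With summed UMIs that of Gzma turned to -0.71. The Ifng and Gzma differences of NK-like cells were smaller in cells with no Il7r UMI, for which the offsets are not given. For regulatory T-like against CD8 T-like cells they were 2.49 for Gzmb (adjusted p = 9.55e-12), -1.17 for Prf1 (7.80e-08), -1.29 for Nkg7 (0.00116), -0.81 for Ctsw (0.0199), -1.67 for Ifng (5.01e-14) and -0.90 for Fasl (1.41e-05). With summed UMIs Gzmb was 0.12 (adjusted p = 0.880) and Nkg7 turned to 0.011. With low genes kept, 0 genes passed in either comparison.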

How the results depend on the processing

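Of 823 values under an alternative, 746 were counted as the same, 62 lost the threshold, 11 gained it and 4 turned. A change of sign was counted as turned only where a value passed the threshold, so the 746 can hold values that changed sign. Of the 4, Gzma in KO minus WT tumours was 0.41 without WT1 (-0.92 without WT2), and with summed UMIs the NK-like against CD8 T-like offset was -0.71 for Gzma and -1.03 for Gzmb, and the regulatory T-like against CD8 T-like offset of Nkg7 was 0.011; the cause was not tested. Genes past the threshold for tumour minus dLN numbered 3064 in T and NK cells (931 with thinned cells, 2205 to 3453 leaving out 1 mouse), 3085 in CD8 T-like cells (912 thinned, 2053 with samples of 5 cells, 1379 with clusters 17 and 18 alone, 2532 to 3130 leaving out 1 mouse) and 612 in regulatory T-like cells (22 thinned, 350 with no filter, 0 with the marker gate, 218 to 596 leaving out 1 mouse, with 369 without KO1 and 218 without WT1). They numbered 3117 for tumour minus ndLN (901 thinned, 2274 to 3460 leaving out 1 mouse) and 172 for NK-like cells (0 thinned, 45 with no filter, 108 with samples of 10 cells, 53 without Il7r cells, 89 to 140 leaving out 1 mouse, with 101 without KO2 and 89 without WT1). For NK-like against CD8 T-like cells there were 307 (9 thinned, 0 with no filter, 482 with summed UMIs, 130 to 455 leaving out 1 mouse, with 163 without KO1, 158 without KO2 and 130 without WT1), and for regulatory T-like against CD8 T-like cells 402 (57 thinned, 0 with no filter, 217 to 414 leaving out 1 mouse, with 253 without KO1 and 217 without WT1). KO minus WT gave 0 in tumour (14 with no filter, 2 thinned, 0 to 1808 leaving out 1 mouse, with 1808 without WT1) and 1 in dLN (0 with no filter, thinned, summed UMIs or limma-voom, 0 to 1 leaving out 1 mouse). List genes past the threshold numbered 44, and 28 with thinned cells.

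Without the mouse as a replicate block 3037 genes passed for tumour minus dLN in T and NK cells, 3093 for tumour minus ndLN, 3259 in CD8 T-like, 632 in regulatory T-like and 137 in NK-like cells, where Gzmk lost its call (adjusted p = 0.110). With the droplet channel, the number KO and WT mice share, as a replicate block, 0 genes passed between genotypes in each tissue. Samples of KO1 and WT1, of the same channel, correlated at 0.149 in tumours, 0.0473 in draining and 0.395 in other nodes. Tumour and dLN of the same mouse correlated at -0.0186, 0.0557, 0.0958 and 0.104 in KO1, KO2, WT1 and WT2. For dLN and ndLN the values were 0.271, 0.0773, 0.255 and 0.413. The mouse term thus rests on the labels, and no pairing of KO with WT mice was assumed. Not run were tumour minus dLN in NK-like cells and in Foxp3-negative CD4 T-like cells, for want of cells. Gzma and Gzmk in CD8 T-like cells and Ifng in regulatory T-like cells were under the filter and have no test.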

Other observations

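Members were also seen outside T and NK cells. Ctsw had a UMI in 25.3% of 186 plasmacytoid dendritic cell-like (pDC-like) cells of dLN and 21.4% of 145 of ndLN, at median depths of 8926 and 8299 UMIs, against 0.174% of 2302 B-like node cells at a median of 3054. Its level there was 0.401, 0.316, 0.361 and 0.463 UMIs per 10000 in dLN of KO1, KO2, WT1 and WT2, against 0.371, 0.204, 0.259 and 0.391 in ndLN. It was thus found in each of the 4 mice in either node. In cDC2-like cells Ctsw had a UMI in 34 of 310 dLN and 18 of 191 ndLN cells.

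In the nodes part of the Ifng and Gzmb RNA lay in cluster 20, the cycling T cells, which made up 3.17% of dLN T and NK cells. This cluster held 42.0% of the Ifng UMIs of all dLN cells and 39.1% of those of ndLN, and 31.9% of the Gzmb UMIs of dLN and 74% of those of ndLN. By mouse its share of the dLN Ifng UMIs was 2.22% in KO1, 64.2% in KO2, 85.4% in WT1 and 11.9% in WT2. It held less of the other granule genes and Fasl in dLN, with 5.36% of the Prf1, 8.61% of the Nkg7, 5.44% of the Ctsw and 11.5% of the Fasl UMIs. Its cells were deep, at a median of 17545.5 UMIs in dLN. Of 120 such node cells 44 had an Ifng UMI, and 27 of these also had Gzmb.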
